A study of Mus musculus with 6 samples.

Results

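Cell proliferation and DNA replication were examined in mouse testes through 36 genes that act in replication licensing, DNA synthesis, chromatin assembly and mitosis. The genes were chosen by name for these functions, and all 36 were among the 23361 genes of the deposited table. All 36 also passed the filter on low counts that left 16658 genes for testing. The inhibitor group comprised 3 mice injected daily for 9 days with 1NaPP1-HCl in a vehicle of saline, cremophor and ethanol, and the control group 3 mice given that vehicle alone for the same time. Every animal of both groups was of the C57BL/6J strain, about 120 days old and homozygous for the V805A change in Ret. Ret is a tyrosine kinase through which spermatogonial stem cells receive the growth factor GDNF. The substitution opens the kinase to inhibitors of this type, and because the controls carry it too, its own effect is not part of the comparison. No inhibitor-treated mice without the substitution were among the samples, so other targets of the compound cannot be told apart from Ret. Polyadenylated RNA of whole testis was sequenced after 5 days of recovery, on day 14.

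Before a cell copies its genome, the origin recognition complex, Cdc6 and Cdt1 load a ring of 6 MCM proteins (Mcm2 to Mcm7) onto each origin, which licenses it. In S phase, Cdc45 and the GINS complex join the ring to form the active helicase, and primase, polymerases, the sliding clamp PCNA, flap endonuclease and DNA ligase complete the strands behind it. In the testis, spermatogonia divide by mitosis, and preleptotene spermatocytes copy their DNA once more before meiosis. Many genes of licensing and S phase are known targets of E2F transcription factors, and many mitotic genes carry a CHR element that recruits the DREAM and MuvB complexes.

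The promoters were searched for the letters of both elements because these are the sequence feature that links genes of this class. RefSeq promoter windows of build GRCm38.p6, from 250 bases before to 50 bases after the annotated start, were available for 30 of the 36 genes. An E2F-like run (TTTCCCGC, TTTCGCGC, TTTGCCGC or TTTGGCGC, either strand) stood in the windows of 12 of these 30 genes (40%), against 2.6% of all 27025 genes with a window. CHR-like letters (TTTGAA or TTCGAA, either strand) stood in 10 of the 30 (33.3%), against 21.7% of all genes, and the letters CCAAT on either strand in 22 (73.3%), against 41.1%. Stretches of 80 bases upstream of the start are shown for the MCM ring and polymerase alpha genes described below that held an E2F-like run before the start. They lie at chr8:75109324-75109403 (plus strand) for Mcm5, chr1:128359709-128359788 (minus strand) for Mcm6, chr5:138172005-138172084 (minus strand) for Mcm7 and chrX:93632250-93632329 (minus strand) for Pola1. Capitals mark the E2F-like run, and in Mcm5 2 such runs on opposite strands overlap.
Mcm5: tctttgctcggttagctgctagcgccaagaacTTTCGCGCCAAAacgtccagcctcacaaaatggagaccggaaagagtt
Mcm6: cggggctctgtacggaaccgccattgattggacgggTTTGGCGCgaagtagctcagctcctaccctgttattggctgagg
Mcm7: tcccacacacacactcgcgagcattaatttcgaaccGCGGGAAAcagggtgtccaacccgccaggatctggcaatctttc
Pola1: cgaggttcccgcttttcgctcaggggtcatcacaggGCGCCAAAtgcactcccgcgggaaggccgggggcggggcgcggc
The run nearest to the start began 149 bases before it in Mcm5, 47 in Mcm6, 165 in Mcm7 and 138 in Pola1. For Mcm7 the RefSeq start used, at 138171883, lies inside the gene span given below, and so does its stretch. A match of letters is a description of these windows and not a binding site.

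The libraries held 23144295 to 29069386 fragments assigned to genes in inhibitor mice and 24788696 to 43127892 in controls. Ret RNA, which the inhibitor does not target directly, was at 0.487, 0.656 and 0.595 CPM (its count scaled to library size) in inhibitor mice and 2.28, 2.39 and 1.84 CPM in controls. Inhibitor mouse 3 stood apart from the other inhibitor mice: its pairwise chi-square values over genes were 11.99 and 12.85 per degree of freedom, against 4.19 to 6.08 for the other pairs within a group. No pair agreed within counting noise, and per the labels each library came from its own mouse.

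In edgeR's quasi-likelihood test over all 16658 genes, none of the 36 genes passed an adjusted p threshold of 0.05 (Benjamini-Hochberg), where 0.156% of all tested genes passed (0.096% lower and 0.06% higher in inhibitor mice). At an unadjusted p under 0.05 there were 13 of the 36 (36.1%), beside 17.9% of all tested genes. Of these, 8 were lower in inhibitor mice (background 8.48%) and 5 higher (background 9.43%). No value of one group lay within the range of the other in 14 of the 36 (38.9%), beside 22.9% of all tested genes. The inhibitor mice lay below the controls in 9 of these (background 11.9%) and above them in 5 (background 11%). The median log2 fold change over the 36 genes was −0.02, and over all tested genes −0.0041, so the set as a whole stood near the level of the transcriptome. In whole testis fewer cells of a type and less RNA per cell cannot be told apart. Within it, log2 fold changes ranged from −0.85 for the licensing factor gene Cdt1 to 0.30 for the GINS subunit gene Gins1. By other tests, DESeq2 passed Mki67 (adjusted p = 0.0072) and Mcm2 (adjusted p = 0.024), both lower, beside 4.65% of all genes to which it gave an adjusted p (1.45% lower). Without the filter on low counts edgeR passed Mki67 alone of the 36, beside 0.559% of all genes (0.277% lower), and limma-voom and limma on log2(FPKM + 1) passed none of the 36.

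**Figure D1:**
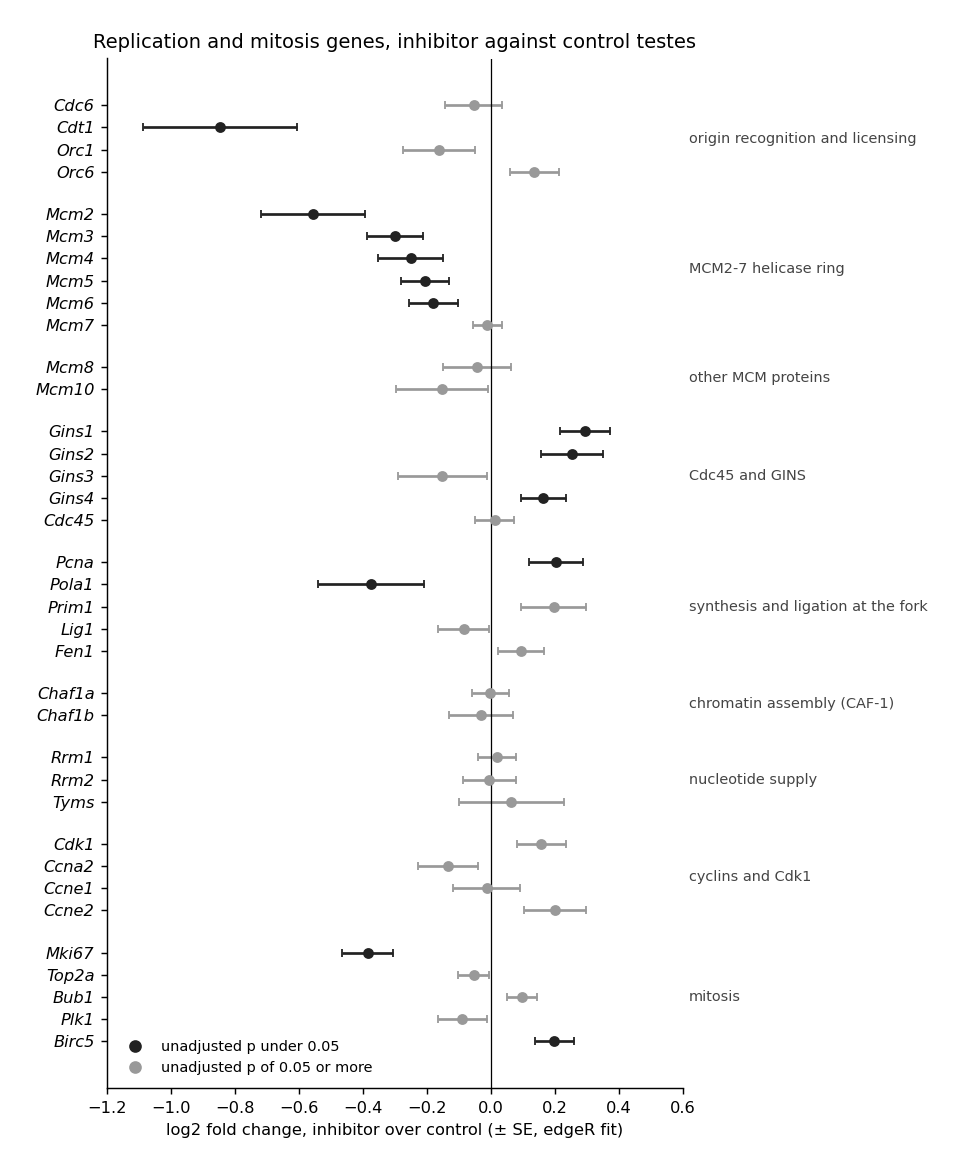
Log2 fold change of the 36 genes, inhibitor over control, with its standard error from the edgeR fit, grouped by the role of the gene product. Cdt1, Mcm2 to Mcm6, Pola1 and Mki67 lie left of 0 and Gins1, Gins2, Gins4, Pcna and Birc5 right of it among the genes drawn in black, which had an unadjusted p under 0.05.

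The 11 of the 36 that passed once inhibitor mouse 3 was left out were Mki67, Mcm2, Mcm3, Mcm4, Mcm5 and Cdt1 on the lower side and Pcna, Gins1, Gins2, Gins4 and Birc5 on the higher side (edgeR adjusted p = 0.001 to 0.037). In that fit 14.3% of 16871 tested genes passed (5.54% lower and 8.71% higher), and with any other mouse left out none of the 36 did. Over all 36 genes inhibitor mouse 3 was the inhibitor mouse nearest to the control mean in 22, and inhibitor mouse 1 the farthest from it in 20. In the 14 genes whose groups did not overlap, which were chosen by that separation, the numbers were 11 and 12.

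Origin licensing showed its largest difference in Cdt1, which brings the MCM ring to origins and is held in check by geminin. Cdt1 was at 1.77, 1.53 and 2.87 CPM in inhibitor mice and at 2.96, 4.56 and 3.57 CPM in controls. All inhibitor values lay below all control values, with inhibitor mouse 3 just under control mouse 1. The log2 fold change (inhibitor over control, as throughout) was −0.85 (SE 0.241, edgeR adjusted p = 0.122), or −1.17 without inhibitor mouse 3. Its partner Cdc6, the ATPase that recruits the ring together with Cdt1, was at 10.8, 10.8 and 10.7 CPM in inhibitor mice and 11.7, 11.4 and 10.4 CPM in controls, and these overlapped.

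The origin recognition complex gave differences of opposite sign that did not pass. Orc1, its largest subunit and an ATPase, was at 8.97, 8.09 and 8.05 CPM in inhibitor mice and 8.57, 8.93 and 10.6 CPM in controls (log2 fold change −0.16, SE 0.112). Orc6, its smallest subunit, was at 16.3, 16.3 and 15.4 CPM in inhibitor mice and 14.4, 14.5 and 14.8 CPM in controls (0.14, SE 0.077). The Orc6 groups did not overlap and the Orc1 groups did. Exons of Orc6 overlap those of Vps35 on the opposite strand over 171 bases. Vps35 was at 168 CPM in inhibitor mice and 150 CPM in controls. Its log2 fold change was 0.16, and its groups were apart in the same direction as those of Orc6. In a fit with an offset for each library's dependence on transcript length and GC content, here called the length and GC correction, Orc6 was at 0.0040.

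None of the 6 genes of the MCM ring passed in the edgeR test. In Mcm2, Mcm3, Mcm4, Mcm5 and Mcm6 every inhibitor mouse lay below every control mouse, and in Mcm7 the groups overlapped. The difference between Mcm7 and the other subunits was not tested. Mcm2 (chromosome 6, 88883474 to 88898780, GRCm38), a subunit that also binds histones, was at 7.20, 9.62 and 11.3 CPM in inhibitor mice and 13.02, 15.9 and 12.1 CPM in controls. Its log2 fold change was −0.56 (SE 0.163, edgeR adjusted p = 0.134), the furthest from 0 in the ring.

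Mcm3 was at 18.0, 20.7 and 22.7 CPM in inhibitor mice and 24.4, 26.5 and 24.6 CPM in controls (−0.30 on the log2 fold change scale, SE 0.088, edgeR adjusted p = 0.123). Mcm4 was at 9.59, 10.8 and 12.3 CPM in inhibitor mice and 13.1, 12.7 and 13.1 CPM in controls (−0.25, SE 0.101). In all 5 of these subunits inhibitor mouse 1 was the lowest of the 6 mice and inhibitor mouse 3 the highest inhibitor mouse.

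Mcm5 was at 21.6, 22.4 and 24.1 CPM in inhibitor mice and 24.4, 27.6 and 26.3 CPM in controls (log2 fold change −0.21, SE 0.075). Mcm6 was at 19.8, 21.9 and 23.1 CPM in inhibitor mice and 25.5, 23.8 and 24.2 CPM in controls (−0.18, SE 0.077). None of the 5 passed in the edgeR test (adjusted p = 0.123 to 0.247). With the length and GC correction they kept their direction, at −0.51 for Mcm2, −0.25 for Mcm3, −0.27 for Mcm4, −0.16 for Mcm5 and −0.16 for Mcm6.

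Mcm7 (chromosome 5, 138164583 to 138172422) was at 186, 177 and 184 CPM in inhibitor mice and 180, 185 and 186 CPM in controls. The log2 fold change was −0.01 with a 95% interval of −0.11 to 0.09, and it was 0.030 with the length and GC correction. Per transcript length, Mcm7 stood far above its partners, at 81.6 ± 2.02 FPKM (fragment counts scaled to transcript length and library size) in inhibitor mice and 82.1 ± 1.27 FPKM in controls (SD, n = 3 each), while the mean of Mcm2 to Mcm6 was 5.07, 5.69 and 6.24 FPKM in inhibitor mice and 6.71, 7.03 and 6.68 FPKM in controls. The ratio of Mcm7 to that mean was 16.4, 13.9 and 13.2 in inhibitor mice and 12.05, 11.7 and 12.5 in controls. Mcm7 hosts the miR-25, miR-93 and miR-106b genes, and its exons overlap those of Ap4m1 over 321 bases and of Cops6 over 64 bases on the opposite strand. Those neighbours had log2 fold changes of 0.014 and 0.024. The kit marks strand, but whether counting used it is not stated, so fragments of overlapping exons may have been assigned to either gene.

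**Figure D2:**
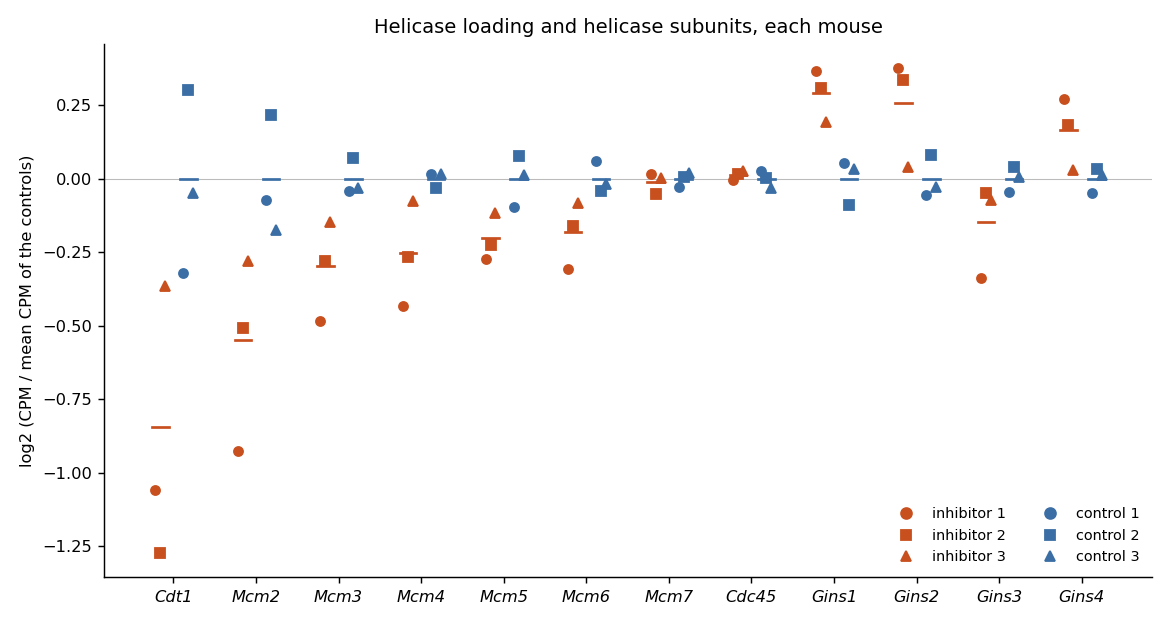
Level of Cdt1 and the helicase subunits in each mouse, as log2 of CPM over the mean CPM of the controls, with a horizontal bar at each group's mean and a symbol for each mouse number. Inhibitor points lie below the control points for Cdt1, Mcm2 to Mcm6 and Gins3, overlap them for Mcm7 and Cdc45, and lie above them for Gins1.

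The other MCM proteins are not part of the ring. Mcm8, which acts with Mcm9 in homologous recombination, was at 9.66, 12.1 and 12.5 CPM in inhibitor mice and 12.2, 11.4 and 11.7 CPM in controls, which overlapped. Mcm10, which helps to activate the helicase, was at 5.01, 6.74 and 6.79 CPM in inhibitor mice and 7.53, 6.15 and 6.97 CPM in controls, and overlapped as well. In both genes the lowest value was that of inhibitor mouse 1.

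None of the 4 GINS genes passed in the edgeR test, with the mean of Gins1, Gins2 and Gins4 higher and that of Gins3 lower in inhibitor mice. Gins1 (chromosome 2, 150905400 to 150931280) was at 24.8, 23.8 and 22.01 CPM in inhibitor mice and 19.9, 18.1 and 19.7 CPM in controls, without overlap. The log2 fold change was 0.30 (SE 0.077, edgeR adjusted p = 0.104), and 0.15 with the length and GC correction. Gins2 was at 19.6, 19.1 and 15.6 CPM in inhibitor mice and 14.6, 15.99 and 14.8 CPM in controls (0.25, SE 0.097, and 0.33 with the correction). Inhibitor mouse 3 lay within the control range for Gins2. The corrected value of Gins2 used its longest transcript of 3900 bases, which is longer than its CPM and FPKM correspond to. The annotated exons of Gins2, taken over all its transcripts, overlap those of Gse1 on the opposite strand over 2758 bases. Whether the gene models used for counting held this overlap is not known. Gse1 had a log2 fold change of −0.25.

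Gins4 was at 46.1, 43.3 and 39.0 CPM in inhibitor mice and 36.9, 39.0 and 38.5 CPM in controls (log2 fold change 0.16, SE 0.071, and 0.085 with the correction). The lowest inhibitor value and the highest control value nearly coincided. Gins3, the least abundant subunit, was at 3.41, 4.16 and 4.09 CPM in inhibitor mice and 4.17, 4.42 and 4.32 CPM in controls (−0.15, SE 0.139). Its groups did not overlap, but inhibitor mouse 2 was almost level with control mouse 1. Cdc45, which binds GINS and the ring, was at 30.0, 30.4 and 30.6 CPM in inhibitor mice and 30.6, 30.1 and 29.4 CPM in controls, with a 95% interval for the log2 fold change of −0.12 to 0.15.

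At the replication fork Pola1 and Prim1, the genes of the polymerase alpha-primase complex within the set, had fold changes of opposite sign. Its other subunit genes, Pola2 and Prim2, were read only within the list of other fork factors below. Pola1 (X chromosome, 93304767 to 93632155), the catalytic subunit that extends primers, was at 2.33, 2.80 and 3.01 CPM in inhibitor mice and 3.04, 3.90 and 3.54 CPM in controls. The groups were close but did not overlap, and the log2 fold change was −0.37 (SE 0.166, edgeR adjusted p = 0.261). Prim1, the primase subunit that makes the RNA primer, was at 10.0, 10.0 and 8.64 CPM in inhibitor mice and 8.45, 8.43 and 8.13 CPM in controls (0.20, SE 0.102, edgeR adjusted p = 0.332), again without overlap. The 95% interval of the log2 fold change was −0.74 to −0.013 for Pola1 and −0.024 to 0.42 for Prim1. With the length and GC correction Pola1 was at −0.39 and Prim1 at 0.14.

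Pcna, the sliding clamp, had the highest level per length of the 36 genes, at 133 ± 17.2 FPKM in inhibitor mice and 115 ± 3.31 FPKM in controls (SD, n = 3 each). Its values were 148, 160 and 123 CPM in inhibitor mice and 128, 122 and 124 CPM in controls, so that inhibitor mouse 3 lay among the controls. The log2 fold change was 0.20 (SE 0.083), 0.30 without inhibitor mouse 3 and 0.069 with the length and GC correction. Fen1, the flap endonuclease of Okazaki fragments, was at 42.9, 49.5 and 49.998 CPM in inhibitor mice and 44.4, 42.2 and 46.7 CPM in controls. Lig1, the ligase that seals them, was at 22.3, 24.9 and 27.3 CPM in inhibitor mice and 26.9, 26.6 and 25.5 CPM in controls. The groups overlapped in both.

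Chromatin assembly factor 1 places new histones behind the fork. Chaf1a, its large subunit, was at 261, 258 and 293 CPM in inhibitor mice and 275, 282 and 256 CPM in controls, and Chaf1b, its middle subunit, at 10.3, 12.99 and 11.5 CPM in inhibitor mice and 11.9, 11.5 and 12.1 CPM in controls. The 95% interval of the log2 fold change was −0.13 to 0.13 for Chaf1a and −0.25 to 0.19 for Chaf1b. Per length the 2 subunits were far apart in every mouse, with control means of 85.6 ± 4.10 FPKM for Chaf1a and 6.78 ± 0.184 FPKM for Chaf1b. Annotated exons of Chaf1a, taken over all its transcripts, overlap those of Ubxn6 on the opposite strand over 4648 bases. Whether the gene models used for counting held this overlap is not known. Ubxn6 was at 615 CPM in inhibitor mice and 579 CPM in controls. With the length and GC correction Chaf1a was at 0.14 (edgeR unadjusted p = 0.010). That correction used its longest transcript of 7698 bases, which is longer than its CPM and FPKM correspond to.

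None of the 3 nucleotide supply genes among the 36 passed in the edgeR test. Rrm1 and Rrm2 encode the large and small subunits of ribonucleotide reductase, which makes deoxyribonucleotides. Rrm1 was at 92.3, 98.4 and 107 CPM in inhibitor mice and 97.2, 99.8 and 96.6 CPM in controls, and Rrm2 at 17.1, 17.8 and 18.1 CPM in inhibitor mice and 17.3, 19.2 and 16.4 CPM in controls. The 95% intervals of the log2 fold changes were −0.11 to 0.15 for Rrm1 and −0.18 to 0.17 for Rrm2, and wider for Tyms, at −0.30 to 0.43. Tyms, the thymidylate synthase gene, was at 10.2, 7.52 and 6.19 CPM in inhibitor mice and 6.93, 7.66 and 8.27 CPM in controls, and the inhibitor mice spanned the control range on both sides.

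Cyclin genes of the G1/S transition and S phase overlapped between the groups. Ccne1, a partner of Cdk2 at S phase entry, was at 7.02, 7.13 and 6.93 CPM in inhibitor mice and 7.33, 7.02 and 6.94 CPM in controls. Its paralogue Ccne2 was at 19.9, 23.2 and 18.2 CPM in inhibitor mice and 18.6, 16.4 and 18.3 CPM in controls (log2 fold change 0.20, SE 0.097, and 0.073 with the correction). Ccna2, the cyclin of S phase and G2, was at 11.3, 10.8 and 13.02 CPM in inhibitor mice and 12.9, 12.7 and 12.99 CPM in controls (−0.13, SE 0.093). On the opposite strand, exons of Exosc9 overlap those of Ccna2 over 510 bases and exons of Ints8 those of Ccne2 over 609. Exosc9 had a log2 fold change of 0.26 and Ints8 of 0.097, with overlapping groups in both. Cdk1, the kinase that drives entry into mitosis, was at 34.9, 40.0 and 36.9 CPM in inhibitor mice and 36.4, 32.1 and 31.7 CPM in controls (0.16, SE 0.076).

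Of the mitotic genes, Mki67 and Birc5 differed most and in opposite directions. Mki67 (chromosome 7, 135689784 to 135716361) encodes the Ki-67 protein that coats mitotic chromosomes and is a standard marker of cycling cells. It was at 32.6, 30.9 and 29.6 CPM in inhibitor mice and 45.2, 36.9 and 39.8 CPM in controls, with every inhibitor mouse below every control. The log2 fold change of −0.38 (SE 0.080) had the smallest p of the 36 genes (edgeR adjusted p = 0.078), and it was −0.25 with the length and GC correction. Its longest transcript of 10061 bases is the longest of the set.

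Birc5, which encodes the chromosomal passenger protein survivin, was at 51.5, 49.4 and 46.7 CPM in inhibitor mice and 41.9, 43.4 and 43.1 CPM in controls. The groups did not overlap, and the log2 fold change was 0.20 (SE 0.060, edgeR adjusted p = 0.130), and 0.20 with the length and GC correction. That correction used the longest Birc5 transcript of 3334 bases, which is longer than its CPM and FPKM correspond to. Bub1, a kinase of the spindle checkpoint, was at 112, 109 and 110 CPM in inhibitor mice and 102, 103 and 103 CPM in controls (0.10, SE 0.047, and 0.027 with the correction). These groups were narrow and did not overlap.

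Top2a, the topoisomerase that untangles sister chromatids, was at 231, 221 and 244 CPM in inhibitor mice and 243, 244 and 236 CPM in controls. Plk1, a kinase of mitotic entry and spindle assembly, was at 80.6, 73.2 and 92.4 CPM in inhibitor mice and 84.7, 92.0 and 85.2 CPM in controls. Both overlapped, and the 95% intervals of the log2 fold changes were −0.16 to 0.05 for Top2a and −0.26 to 0.08 for Plk1.

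Levels per transcript length spanned a wide range within the set. Control means ran from 0.666 ± 0.080 FPKM for Pola1 to 115 ± 3.31 FPKM for Pcna, with a median of 8.82 FPKM. Chaf1a (85.6 ± 4.10 FPKM) and Mcm7 (82.1 ± 1.27 FPKM) followed Pcna, and these 2 neighbours did not differ beyond their spread. Of the 8 genes that were lower in inhibitor mice at an unadjusted p under 0.05, Cdt1, Pola1, Mcm2, Mcm4 and Mki67 had control means under 5 FPKM, and none of the 5 higher genes did. Genes whose groups overlapped were under 5 FPKM too, among them Ccne1 (3.97), Mcm8 (3.86), Cdc6 (2.52) and Tyms (2.08). A link between level and direction was not tested. By position, 6 of the 36 genes lie on chromosome 8 (Cdt1, Gins2, Gins3, Gins4, Mcm5 and Orc6), and these included both lower and higher ones. Of the lower genes with a promoter window, 5 of 7 held an E2F-like run (Cdt1, Mcm3, Mcm5, Mcm6 and Pola1, but not Mcm2 and Mki67). Of all 30 of the 36 genes with a window 12 held one (40%), beside 2.6% of all genes. Only 2 of the higher genes had a window, Pcna and Birc5, and neither held a run. Gins1, Gins2 and Gins4 had no window, and the directions were not compared by a test. Mcm7, whose groups overlapped, held such a run too.

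**Figure D3:**
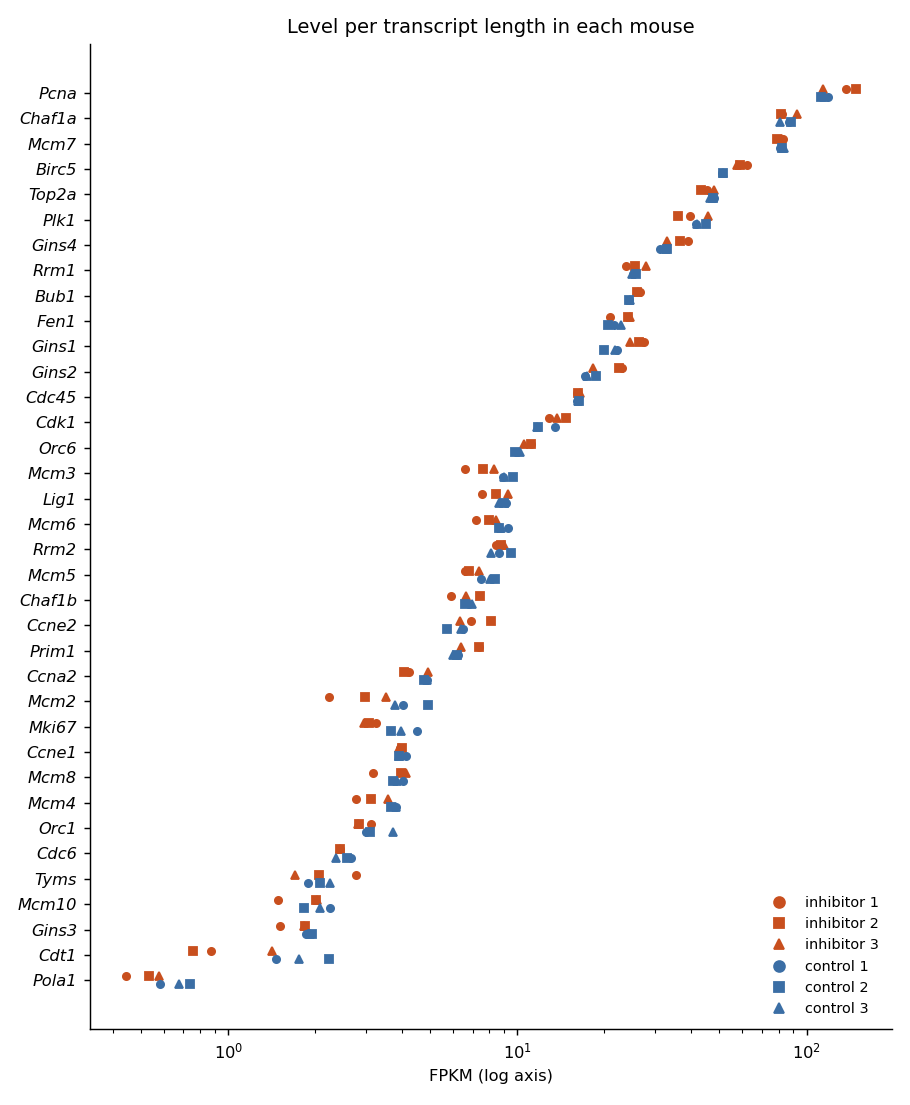
FPKM of the 36 genes in each mouse on a log axis, in order of the control mean, with inhibitor mice above control mice in each row. Pcna is highest and Pola1 lowest, and every inhibitor mouse lies left of every control in the rows of Mcm2, Mcm3 and Mki67.

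The length and GC correction changed single genes more than the set. With it, 12 of the 36 genes had an unadjusted p under 0.05 in the edgeR fit, of which 10 were among the 13 without the correction and all 10 kept their direction. Gins1, Gins4 and Pcna left that group, and Cdk1 and Chaf1a joined it. The correction used the longest annotated transcript of each gene. In some genes, among them Chaf1a, Cdk1, Gins2 and Birc5, CPM and FPKM together correspond to a shorter transcript. The corrected values of such genes are therefore uncertain. None of the 36 passed the adjusted threshold in either fit, and the median log2 fold change was −0.03 with the correction.

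**Figure D4:**
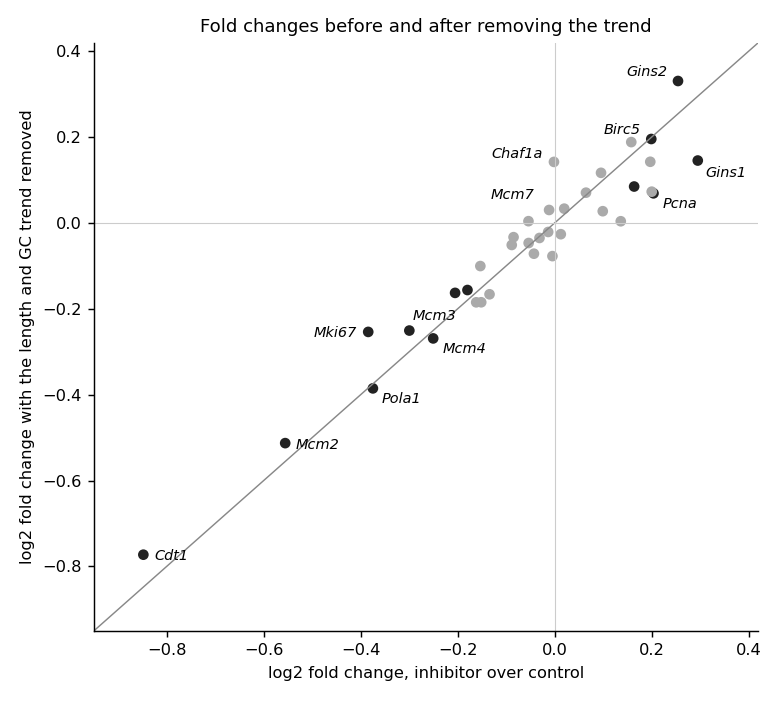
Log2 fold change of the 36 genes with the length and GC correction (vertical axis) against the uncorrected value (horizontal axis), both inhibitor over control. Black points had an unadjusted p under 0.05 without the correction, the diagonal marks equal values, and Gins1 and Pcna lie furthest below it and Chaf1a furthest above.

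The other genes of these pathways were read in the same fit. Of 15 other licensing and firing factors, none passed, 2 were lower and 3 higher at an unadjusted p under 0.05 (background 17.9% in both directions together), and the median log2 fold change was 0.05. Mcmbp, whose product binds MCM subunits and guards their assembly, was at 18.0, 19.9 and 21.8 CPM in inhibitor mice and 25.9, 25.6 and 25.4 CPM in controls (log2 fold change −0.36, SE 0.080, edgeR adjusted p = 0.083). These values did not overlap and had the same order of inhibitor mice as Mcm2 to Mcm6. Topbp1, which helps to fire origins, had a log2 fold change of −0.19, Orc3 of 0.20 and geminin (Gmnn) of 0.25. With the length and GC correction Orc3 was at 0.096 and Gmnn at 0.13, and neither kept an unadjusted p under 0.05. Gmnn was at 27.9, 30.1 and 22.9 CPM in inhibitor mice and 25.2, 20.96 and 22.1 CPM in controls.

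Among 31 other fork factors, none passed, and the median was 0.02. At an unadjusted p under 0.05, 6 were lower and 3 higher, beside 8.48% and 9.43% of all tested genes. Pold1, the catalytic subunit of polymerase delta, was at 17.1, 16.3 and 16.3 CPM in inhibitor mice and 19.0, 23.4 and 23.2 CPM in controls (log2 fold change −0.41, SE 0.090, edgeR adjusted p = 0.083). Pold3, an accessory subunit of the same polymerase, was at 173, 177 and 161 CPM in inhibitor mice and 148, 143 and 155 CPM in controls (0.20, SE 0.053, edgeR adjusted p = 0.106). Both pairs of groups were apart, on opposite sides. The fork protection factor Clspn was at −0.33 and Wdhd1, which tethers polymerase alpha to the helicase, at −0.31 on the log2 fold change scale.

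Of 17 other genes of nucleotide supply, none passed, and the median was −0.08. At an unadjusted p under 0.05, 6 were lower and 1 higher, beside 8.48% and 9.43% of all tested genes. Cad, which carries out the opening steps of pyrimidine synthesis, was at 22.1, 23.2 and 24.8 CPM in inhibitor mice and 28.1, 34.0 and 36.5 CPM in controls (log2 fold change −0.49, SE 0.094, edgeR adjusted p = 0.062). Dctd, the dCMP deaminase gene, was at 1.08, 1.40 and 0.875 CPM in inhibitor mice and 2.00, 2.30 and 2.14 CPM in controls (−0.96, SE 0.213). The CTP synthase gene Ctps was at −0.27 and Shmt2, a mitochondrial folate enzyme, at −0.33. In all 4 genes, which had the smallest p of their list, every inhibitor mouse lay below every control. Of all tested genes 11.9% lay apart in this direction. With the length and GC correction Cad was at −0.32.

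Of 42 other mitosis genes, none passed, 22 were higher and 20 lower, and the median was 0.0045. At an unadjusted p under 0.05, 8 were higher and 2 lower, beside 9.43% and 8.48% of all tested genes. Spc25 and Nuf2, subunits of the NDC80 kinetochore complex, had log2 fold changes of 0.25 (SE 0.065) and 0.21 (SE 0.054), with edgeR adjusted p = 0.103 and 0.104. Spc25 was at 27.3, 27.8 and 26.8 CPM in inhibitor mice and 23.1, 22.5 and 23.2 CPM in controls. The mitotic cyclin gene Ccnb1 was at 93.3, 87.3 and 91.0 CPM in inhibitor mice and 75.3, 83.4 and 78.9 CPM in controls (0.19, SE 0.057), and Hmmr, a spindle protein gene, was at 0.20. In these 4 genes, which had the smallest p of their list, the inhibitor mice lay above the controls without overlap (background 11%). With the length and GC correction Spc25 was at 0.12 and Ccnb1 at 0.11, and of the 4 only Nuf2, at 0.16, kept an unadjusted p under 0.05. Most of these products also serve the meiotic divisions.

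Cell cycle transcription factors and their partners, a list that holds activators, repressors and pocket proteins, were lower in 14 of 19 genes, beside 8501 of all 16658 tested genes. The median was −0.11, and none passed. E2f1 was at 3.37, 3.54 and 4.06 CPM in inhibitor mice and 5.65, 5.26 and 4.93 CPM in controls (−0.53, SE 0.137, edgeR adjusted p = 0.104). E2f2 was at 1.60, 0.875 and 1.75 CPM in inhibitor mice and 5.77, 5.95 and 1.803 CPM in controls, so that control mouse 3 was close to the inhibitor mice (−1.66, SE 0.531). The E2F partner gene Tfdp1 was at −0.17, and the pocket protein gene Rbl2 at 0.18. At an unadjusted p under 0.05, 3 were lower and 1 higher, beside 8.48% and 9.43% of all tested genes.

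Brakes of the cell cycle had a median of −0.05 over 12 genes, with none past the adjusted threshold. At an unadjusted p under 0.05, 1 was higher and 1 lower, beside 9.43% and 8.48% of all tested genes. Cdkn2c, an inhibitor of Cdk4 and Cdk6, was at 74.5, 74.3 and 79.8 CPM in inhibitor mice and 69.2, 66.1 and 62.6 CPM in controls (log2 fold change 0.21, SE 0.059, edgeR adjusted p = 0.117). Pkmyt1, a kinase that restrains Cdk1, was at −0.18 and at −0.11 with the length and GC correction, where its unadjusted p was 0.061. Cdkn1c was at 0.27 and Cdkn2a at −0.26. Of 15 tested genes of the meiotic cell cycle 11 were higher, beside 8157 of all 16658 tested genes, with a median of 0.04. Beside 17.9% of all tested genes, 1 of them had an unadjusted p under 0.05. This was Ccna1, the cyclin A of male meiosis, at 126, 123 and 142 CPM in inhibitor mice and 113, 118 and 116 CPM in controls (0.17, SE 0.060). Its mitotic counterpart Ccna2 was at −0.13, with overlapping groups (edgeR adjusted p = 0.483). Aurkc was at 0.15, Mcmdc2 at 0.17 and Ccnb3 at −0.21, and with Ccna1 none of these 4 passed. With the length and GC correction Aurkc was at 0.087 and Mcmdc2 at 0.082.

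**Figure D5:**
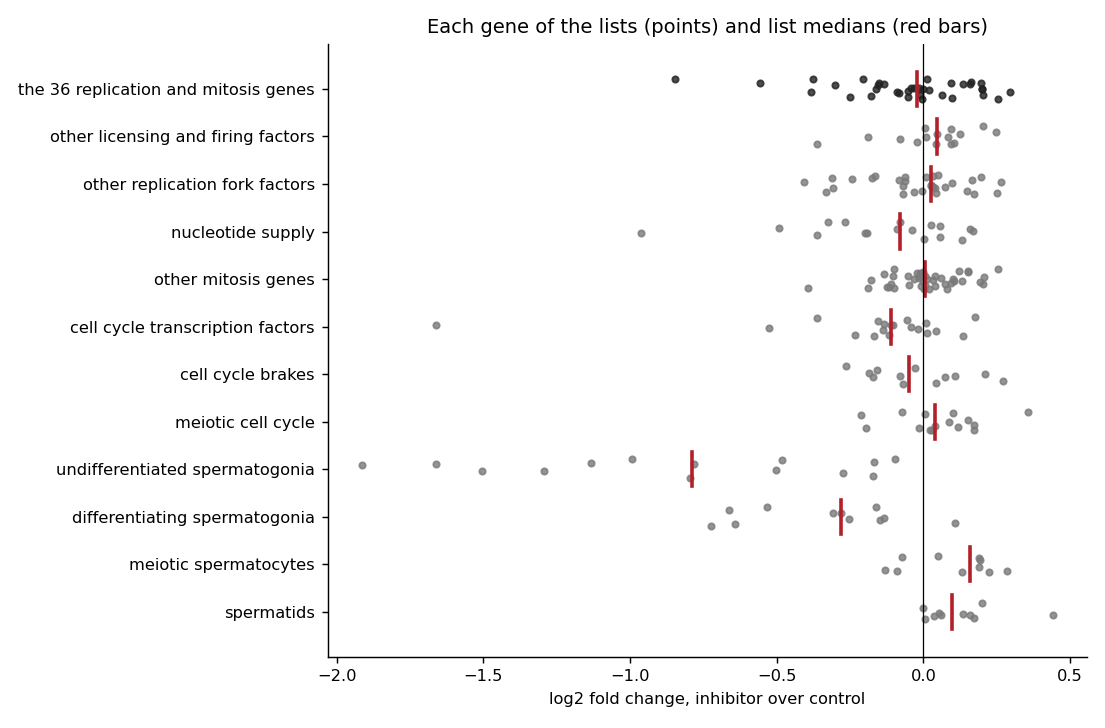
Log2 fold change, inhibitor over control, of each tested gene in the 36-gene set, the other cell cycle lists and the germ cell marker lists, with the list median as a red bar. The cell cycle lists have medians from −0.11 to 0.05, and the medians of undifferentiated and differentiating spermatogonia are −0.79 and −0.28.

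Among the germ cell stages, markers past the adjusted threshold were found for spermatogonia, and none for spermatocytes or spermatids, beside 0.156% of all tested genes. At an unadjusted p under 0.05 in the edgeR test, markers of every germ cell stage were more frequent than all tested genes (17.9%). The shares were 57.1% for undifferentiated and 54.5% for differentiating spermatogonia, 70% for spermatocytes and 40% for spermatids. Of 14 tested markers of undifferentiated spermatogonia all were lower, and 4 passed (Ret, Sox3, Zbtb16 and Lin28a), with a summed level of 91.6 to 100.4 CPM in inhibitor mice and 119.9 to 123.5 CPM in controls. Zbtb16, a transcription factor of that stage, was at 2.85, 3.19 and 3.46 CPM in inhibitor mice and 6.13, 7.18 and 5.54 CPM in controls (log2 fold change −0.99, SE 0.149, edgeR adjusted p = 0.032). For differentiating spermatogonia 10 of 11 markers were lower and 1 passed (Ccnd2), while the summed level was 652 to 691 CPM in inhibitor mice and 646 to 655 CPM in controls. The 1 higher marker had a log2 fold change of 0.11, and its groups did not overlap. The sum follows the most abundant markers and so does not describe the 10 lower ones.

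Spermatocyte markers were higher in 7 of 10 genes, beside 8157 of all 16658 tested genes, with none passing and a summed level of 6038 to 6365 CPM in inhibitor mice and 5543 to 5843 CPM in controls. Their median log2 fold change was 0.16, and 0.011 with the length and GC correction, against 0.098 and 0.082 for spermatid markers. Without the correction, 6 spermatocyte markers were higher and 1 lower at an unadjusted p under 0.05. The groups did not overlap in 7 of the 10, with 6 above and 1 below, beside 22.9% of all tested genes. For spermatids 4 markers were higher and 0 lower at that unadjusted p, and 3 lay apart. Spermatid markers were higher in 9 of 10, with none passing and a summed level of 18035 to 19779 CPM in inhibitor mice and 16696 to 17512 CPM in controls. All 10 Sertoli cell markers were lower and none passed, with a summed level of 1125 to 1440 CPM in inhibitor mice and 1254 to 1323 CPM in controls.

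Of 8 Leydig cell markers 6 were lower, with none passing and a summed level of 916 to 1095 CPM in inhibitor mice and 986 to 1229 CPM in controls. All 8 markers of peritubular and endothelial cells were lower, with none passing and 103.5 to 120.8 CPM in inhibitor mice and 111.1 to 160.8 CPM in controls. Of 10 markers of macrophages and lymphocytes 6 were lower, with none passing and 50.3 to 56.0 CPM in inhibitor mice and 45.3 to 57.1 CPM in controls. Erythroid markers summed to 21.6 to 33.3 CPM in inhibitor mice and 24.4 to 25.9 CPM in controls, and Hba-a2 among them was at 0 in every library. No marker of the other cell types was at 0 in every library. The part of these cell types in the values of the 36 genes was not tested.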

How the data were processed

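Per the submitters' processing notes, cutadapt 1.8, TopHat2 2.0.13, Cuffdiff 2.2.1 and build mm10 were used, while the gene annotation and strand setting were not given in the sources used here. The authors deposited, for each gene and library, estimated counts of fragments before scaling, of which 98.8% were whole within 1e-06, and these were rounded. The deposited FPKM values, scaled by the authors to length and library size, served for levels per length and in alternatives.

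Counts were filtered with filterByExpr, scaled by trimmed mean of M values (TMM) and tested with edgeR 4.0.16 in R 4.3.3 (robust quasi-likelihood test, two-sided, Benjamini-Hochberg over 16658 genes, threshold 0.05). The standard error is the fold change over the square root of F. Alternatives used RLE or no scaling, DESeq2 1.42.0, limma 3.58.1 on voom weights or on log2(FPKM + 1) and log2(FPKM + 0.1), other filters, removal of the 50 most abundant genes, omission of each mouse, a block for mouse number, and a loess offset (span 0.5) on length and GC of the longest GENCODE M21 transcript, available for all 36 genes and 99.0% of those tested. After seeing the data, the median was also taken over the 29 genes whose exons overlap no gene found in the table by its symbol, and over the 24 whose exons overlap no other annotated gene. The test was tried on simulated data.

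The genes and lists were chosen with earlier results of these data known. By the rule for naming, all 36 genes could be named, and from each other pathway list the genes past the threshold or up to 4 of smallest p. Of 278 list symbols 275 matched the table, 3 through another symbol. In 7 genes, 9 values carried a failed status.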

Additional observations from a re-analysis of the deposited data

How the results depend on the processing

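None of the 36 genes passed in any alternative but 3, and edgeR gave 13 at an unadjusted p under 0.05. DESeq2 passed 2, the fit without a filter on low counts 1 (Mki67), and the fits with a mouse left out 0 to 11. The median log2 fold change of the 36 was −0.053 with library totals alone, where that of all genes was −0.035, −0.054 over the 29 genes without an exon overlap with a gene of the table and −0.037 over the 24 without one with any annotated gene. Over all genes 26 passed in the edgeR fit, against 533 in DESeq2, 115 without a filter, 14 in limma-voom, 13 with the length and GC offset, 10 with at least 50 counts in 3 libraries, 1 with limma on log2(FPKM + 0.1) and 0 on log2(FPKM + 1), where 2782 had an unadjusted p under 0.05. With a mouse left out it was 0 to 2405, the highest without inhibitor mouse 3.

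The mouse number did not pair the libraries (correlations of same-numbered deviations 0.06, −0.12 and −0.02). With it as a block 5 genes passed, 2 with the length and GC offset as well, and none of the 36 in either.

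Of 648 values of the 36 genes over 18 alternatives, 29 changed sign. With the length and GC offset, without and with the block, Mcm7 was at 0.030 and 0.030, Cdc6 at 0.0042 and 0.0056, Cdc45 at −0.026 and −0.027 and Chaf1a at 0.142 and 0.142. With library totals alone Rrm1 was at −0.011 and Cdc45 at −0.018. With RLE factors Rrm2 was at 0.00043 and Chaf1a at 0.0033, and with DESeq2 Chaf1a was at 0.0030. Rrm2 was at 0.0040 and 0.0035 in limma with pseudocounts of 0.1 and 1, and at 0.0014 with the block. With mice left out in turn the ranges were −0.025 to 0.0082 for Mcm7, −0.118 to 0.067 for Mcm8, −0.023 to 0.0095 for Ccne1, −0.039 to 0.070 for Rrm1, −0.046 to 0.068 for Rrm2, −0.158 to 0.222 for Tyms, −0.063 to 0.031 for Chaf1a and −0.117 to 0.049 for Chaf1b. The causes were not tested. A gene at 1 CPM rested on 23.1 to 43.1 fragments, so low genes such as Cdt1 and Pola1 are the least precise.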
